A study of Saccharomyces cerevisiae with 30 samples.

Results

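The retrograde response genes described here are 8 named genes, CIT1, CIT2, DLD3, ACO1, IDH1, IDH2, RTG2 and MKS1, of the 6932 features in the deposited expression table. All 8 were found there by symbol. They were read out as Ty5 insertions in the 1200 bp before each start codon in 28 calling card libraries, 1 per transcription factor, with Rtg1 as the factor of chief interest, and as RPKM in 2 polyA RNA libraries of Saccharomyces cerevisiae Σ1278b. In a calling card experiment the factor is fused to Sir4, which directs integration of the Ty5 retrotransposon to DNA near the places where the factor is bound, so insertions serve as marks of its occupancy. Per the labels, cells for these libraries came from low ammonium synthetic medium and were induced in 2% galactose, and DNA from colonies carrying an insertion was cut in 3 separate digests before sequencing outward from Ty5. The factors other than Rtg1 were Flo8, Mss11, Mfg1, Sok2, Ste12, Tec1, Mit1, Nrg1, Sfl1, Phd1, Mga1, Rim101, Rlm1, Skn7, Smp1, Fkh1, Dig1, Gln3, Hms1, Msn1, Hot1, Hms2, Yap6, Msn2, Msn4, Gcn4 and Rgm1. The RNA libraries were labelled nitrogen-starved medium and rich medium, but their protocol text is that of the calling card libraries. No label gives the recipe of either RNA medium, the promoter behind the fusions, or whether libraries came from separate cultures.

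The retrograde pathway carries a signal from mitochondria to the nucleus. Rtg1 and Rtg3, a pair of basic helix-loop-helix proteins, activate genes together when respiration is impaired or when glutamate and glutamine run short. Rtg2 is the positive regulator upstream of them and acts by holding back Mks1, the negative regulator that keeps Rtg1 and Rtg3 out of the nucleus. CIT2 is the classic target and encodes the peroxisomal citrate synthase of the glyoxylate cycle, and DLD3 encodes a cytosolic member of the D-lactate dehydrogenase family. CIT1 (mitochondrial citrate synthase), ACO1 (aconitase), and IDH1 and IDH2 (the subunits of NAD-dependent isocitrate dehydrogenase) encode the first steps of the tricarboxylic acid cycle, which lead to alpha-ketoglutarate, the precursor of glutamate.

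The 28 libraries held 401017 listed insertions, between 2836 and 41619 each with a median of 12128.5. Rtg1 was the smallest, with 2836 insertions at 2814 positions, or 0.707% of the total, so a count of 0 in it allows a rate of up to 1.06 insertions per 1000 (a limit of 3 counts). Each condition had 1 library, so no value has a spread between replicates. Every interval below is a 95% interval for counting error only. Insertions amplified by PCR and colonies grown from 1 event are not independent, and those intervals are too narrow to that extent. Each library was tested against the other 27 pooled with a one-sided Fisher's exact test on insertions inside and outside the window. P-values were adjusted by the Benjamini-Hochberg method over all gene and library pairs. This test compares libraries, not conditions.

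The Rtg1 library carried far more insertions before CIT2 and DLD3 than any other library. The other 6 genes together had 8 Rtg1 insertions. CIT2 and DLD3 together held 126 insertions, or 4.44% of the Rtg1 library. They were the 2 of 8 members called at an adjusted p of 0.05 or less, beside 0.5% of the 6402 genes tested in that library. The authors' deposited p-values, at a threshold of 0.001, also called these 2 of 8 members in the Rtg1 library, beside 0.388% of 6444 genes. Of all genes, 72.5% had no Rtg1 insertion in the window.

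CIT2 (YCR005C) lies on chromosome 3 at 118177 to 119559 in the deposited coordinates (genome build not stated). It had 82 Rtg1 insertions in the 1200 bp upstream (exact Poisson interval 65.2 to 102), against 184 insertions in the other 27 libraries pooled. The Rtg1 rate was 28.9 insertions per 1000 (Clopper-Pearson interval 23.1 to 35.8), against 0.462 per 1000 in the pooled libraries. Among those 27 libraries the lowest rate was 0 (Gcn4), the median 0.401 and the highest 1.21 per 1000 (Mga1, 33 insertions). Rtg1 thus stood above every other library, and no other library came near its rate. The ratio was 62.6-fold (exact interval 47.6 to 81.6), with an adjusted p of 6.2e-105 by Fisher's exact test. CIT2 ranked first of all genes in the Rtg1 library by number of insertions, and first by fold among the 32 genes called there.

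DLD3 (YEL071W) lies on chromosome 5 at 20067 to 21557. It had 44 Rtg1 insertions upstream (32.0 to 59.1), against 116 in the other 27 libraries pooled. The rate was 15.5 per 1000 in Rtg1 (11.3 to 20.8), against 0.291 per 1000 in the pooled libraries. The lowest of the 27 was 0 (Tec1 and Rlm1), the median 0.235 and the highest 1.26 per 1000, from 9 insertions in Msn1. As at CIT2, no library overlapped with Rtg1. The ratio was 53.3-fold (36.8 to 76.0), with an adjusted p of 3.4e-53 by Fisher's exact test. DLD3 ranked 9th of all genes in the Rtg1 library by number, and 6th by fold among the 32 called. These ranks count genes that share an upstream region separately. Among those ahead of DLD3 on both, YPR036W-A, IRC16, YPR039W and TIP41 had the same count of 77 Rtg1 insertions.

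The signal at both genes was spread over many positions. The 82 insertions at CIT2 fell at 74 positions, of which 19 were also hit in another library. The number deposited beside each position was taken as its count of supporting reads. By that reading their median support was 79 reads, and they made up 6.96% of all reads of the Rtg1 library. The 44 insertions at DLD3 fell at 41 positions, 22 of them also hit elsewhere, with a median of 77.5 reads and 2.64% of the library's reads. The median over all Rtg1 insertions was 13 reads. Some listed positions adjoin a much richer one, such as 214 bp (1 read) by 213 bp (968 reads) before CIT2. At DLD3, 263 bp (1 read) adjoins 262 bp (1313 reads). The number of separate events may thus be smaller than the number of positions.

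The authors' deposited table gave Rtg1 a p-value of 8.88e-16 at CIT2 and 2.22e-16 at DLD3. Both sit at the limit of double-precision arithmetic and give no order between the genes. In the same table all 27 other libraries had a p above 0.9 at CIT2, the lowest being 0.91, and 21 of the 27 did at DLD3, where the lowest was 0.133. All 28 deposited values at each of these genes were matched by a Poisson probability of the observed count. Its expected number is 1 plus a background count scaled from 34110 insertions. That formula was read off the deposited values and may not be how they were made. The background count so implied was 50 at CIT2 and 23 at DLD3, against a median of 4 over the genes fitted, and 0.298% of those genes had 50 or more. Rtg1's expected number was then 5.16 at CIT2 and 2.91 at DLD3, so the observed counts were 15.9-fold and 15.1-fold above it. The fold at CIT2 therefore differs by more than 3 times between these backgrounds, and both genes were called against either.

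**Figure D1:**
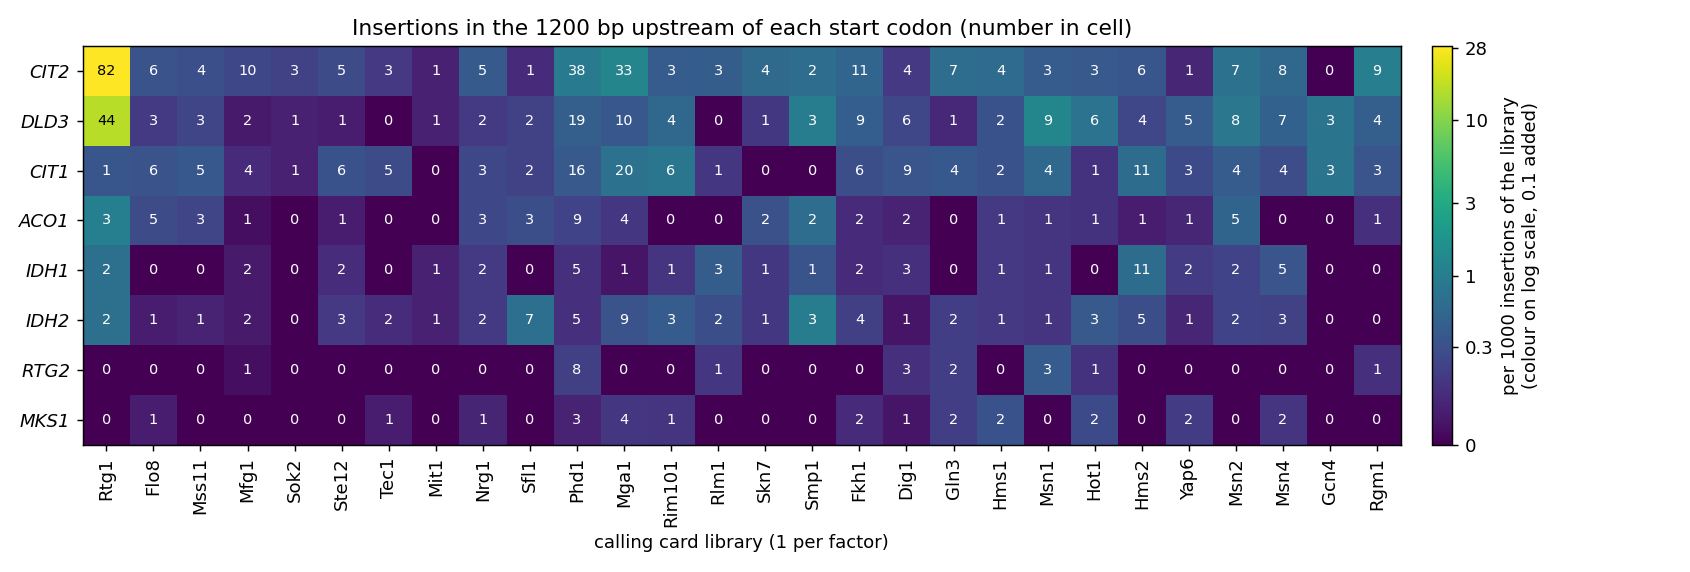
Insertions per 1000 insertions of the library in the 1200 bp upstream of each gene (rows) in each of the 28 libraries (columns, Rtg1 first), with the number of insertions printed in each cell and colour on a compressed scale. The Rtg1 cells of CIT2 (82 insertions) and DLD3 (44 insertions) stand apart from every other cell.

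Within the windows the Rtg1 insertions were arranged differently at the 2 genes. At DLD3 they ran from 45 to 378 bp before the start codon with a median of 217 bp, and 38 of 44 (86.4%) lay in 1 stretch of 100 bp, at 164 to 263 bp. None lay between 378 and 2000 bp. At CIT2 they ran from 171 to 1071 bp with a median of 375 bp, and the densest 100 bp, at 194 to 293 bp, held 29 of 82 (35.4%). A second group of 17 lay between 701 and 1000 bp, and 3 more lay between 1200 and 2000 bp. The open reading frame YCR006C occupies 202 to 675 bp before CIT2, and 59 of the 82 insertions fell within it, 4 nearer to CIT2 and 19 beyond it.

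The pooled other libraries had insertions in the same DLD3 stretch. At 150 to 400 bp before DLD3 lay 41 of 44 Rtg1 insertions (93.2%), against 76.7% of the 116 in the other libraries. At CIT2 the same interval held 47 of 82 Rtg1 insertions (57.3%), against 27.2% of 184. These shares are descriptions with no test, since insertions of 1 library are not replicates. No Rtg1 insertion lay inside any of the 8 genes. The other libraries pooled had between 3 and 33 insertions in each, or 0.00753 to 0.0829 per 1000. A count of 0 allows Rtg1 up to 1.06 per 1000, so no difference is read from it.

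YCR006C has a window of its own that shares 525 bp with that of CIT2. It held 22 Rtg1 insertions, with an adjusted p of 3.5e-14 by Fisher's exact test. Of these 22, 19 lay in the shared 525 bp and are also counted at CIT2, so the calls at CIT2 and YCR006C are not separate results. The gene to which those 19 insertions belong cannot be told apart. The 201 bp between YCR006C and CIT2 held 4 Rtg1 insertions, against 3 in the other 27 libraries pooled, a ratio of 187-fold with a wide interval of 31.7 to 1278. CIT2 was still called on that stretch, with an adjusted p of 2.8e-05 by Fisher's exact test, but on few insertions.

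**Figure D2:**
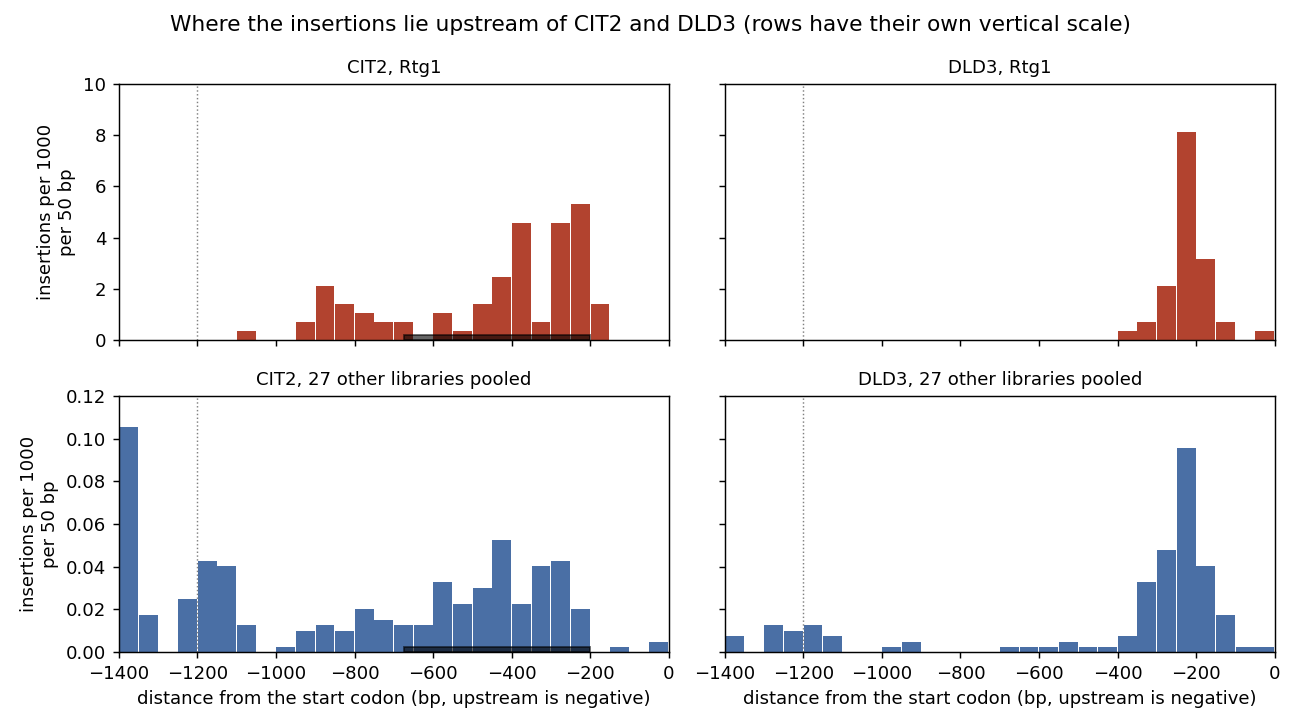
Insertions per 1000 insertions of the library in bins of 50 bp by distance from the start codon of CIT2 (left) and DLD3 (right), for Rtg1 (top) and the 27 other libraries pooled (bottom), with a separate vertical scale for each row. The dotted line is the 1200 bp edge and the dark bar YCR006C. Rtg1 insertions cluster at 164 to 263 bp before DLD3 and reach out to 1071 bp before CIT2.

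The 4 genes of the first tricarboxylic acid cycle steps were not called in the Rtg1 library. At ACO1 (YLR304C, chromosome 12, 760903 to 763239) Rtg1 had 3 insertions, at 380 to 410 bp, or 1.06 per 1000. The other 27 libraries had 48, a pooled 0.121 per 1000, with single libraries from 0 through a median of 0.0975 to 0.666 per 1000 (Smp1, 2 insertions). Rtg1 was the highest of the 28 there, but on 3 insertions. The ratio of 8.78-fold has an interval of 1.75 to 27.2, an unadjusted p of 0.00571 and an adjusted p of 0.24 by Fisher's exact test.

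At IDH1 (YNL037C, chromosome 14, 552729 to 553811) Rtg1 had 2 insertions, against 46 in the other libraries. Their rates ran from 0 to 0.648 per 1000 with a median of 0.106. The ratio was 6.10-fold (0.718 to 23.3, adjusted p = 0.711 by Fisher's exact test). At IDH2 (YOR136W, chromosome 15, 578886 to 580086) Rtg1 had 2 insertions, against 65 in the other libraries, a ratio of 4.32-fold (0.512 to 16.2, adjusted p = 0.931 by Fisher's exact test). At CIT1 (YNR001C, chromosome 14, 624427 to 625866) Rtg1 had 1 insertion, against 129 in the other libraries, a ratio of 1.09-fold (0.0273 to 6.17). At this depth 4 to 6 Rtg1 insertions would have been needed for a call at these 4 genes. The intervals at ACO1, IDH1 and IDH2 reach ratios of 16.2 or more, so the size of any difference at these genes was not resolved at this depth.

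IDH2 shares merged coordinates with the overlapping gene IRC14 in the deposited table, which makes its start codon uncertain. Its deposited p-values matched the counts in 22 of 28 libraries at the listed start, and in all 28 with the window moved 91 bp downstream. The moved window held the same number of Rtg1 insertions, 2, against 67 in the other libraries.

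The regulators RTG2 and MKS1 had no Rtg1 insertion. RTG2 (YGL252C, chromosome 7, 24047 to 25813) had 20 insertions in the other 27 libraries, with the highest rate in Msn1 (0.421 per 1000, 3 insertions), and 20 of the 28 libraries had none. MKS1 (YNL076W, chromosome 14, 478713 to 480467) had 24, with the highest rate in Hms1 (0.313 per 1000, 2 insertions), and 15 libraries had none. A count of 0 allows Rtg1 up to 1.06 per 1000 at either gene, which is above the rate of every other library at both.

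With the library as the unit, Rtg1 ranked first of 28 by rate at CIT2, DLD3, ACO1 and IDH1. It ranked 2nd at IDH2, behind Smp1, and 10th at CIT1. An exact one-sided permutation over libraries gives a first rank p = 0.0357, which is the smallest that 1 library against 27 can give. That p follows from the rank alone and is unadjusted for the 8 genes. It treats libraries of 2836 to 41619 insertions alike, though a few insertions can put a small library first by rate. At ACO1 the first rank rests on 3 insertions, and the next rate was that of Smp1, with 2 insertions in a library of 3005. The rank at ACO1 is therefore given as a description only. At IDH1 the first rank rests on 2 insertions, 0.705 per 1000 in Rtg1 against 0.648 in Hms2, below the limit of 1.06 that 0 insertions allow, so the order there was not resolved. The median Rtg1 ratio over the 8 genes was 5.21-fold, midway between IDH1 and IDH2 with 2 insertions each. Over all windows tested the median was 0, as most had no Rtg1 insertion, and no difference is read from these medians.

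Over all 28 libraries, 3 of the 224 gene and library pairs were called by Fisher's exact test, beside 1.0% of all pairs tested. By the deposited p-values the same number of pairs was called, beside 0.879% of all pairs. By both rules the pairs were Rtg1 at CIT2, Rtg1 at DLD3 and Hms2 at IDH1. The share of 1.34% is near the background share of all genes. An unadjusted Fisher p was under 0.05 for 19 pairs, and 61 pairs had no insertion at all. For neither count was a share over all pairs taken, so no excess or lack is read from them.

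Hms2, a heat shock factor-like protein linked to filamentous growth, had 11 insertions before IDH1, a rate of 0.648 per 1000 and 6.72-fold that of the other libraries pooled (3.09 to 13.5). The adjusted p was 8.6e-04 by Fisher's exact test, where 1.8% of genes were called in the Hms2 library. The authors' deposited p was 0.000286, where 0.683% of genes passed. Of the 11, 4 were listed with a count of 1, taken as 1 read. The same 11 insertions lie before NCE103, the carbonic anhydrase gene that is transcribed away from IDH1, whose window shares 811 bp, so the gene they belong to cannot be told apart. Their median distance was 593 bp from the IDH1 start codon. The call was lost in a window of 600 bp, with an adjusted p of 0.379, and with insertions of at least 2 reads, with an adjusted p of 0.107 (both by Fisher's exact test).

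The remaining pairs did not pass, among them a few close to the threshold. These were chosen after their values were seen. Mga1 had 20 insertions before CIT1 (adjusted p = 0.0505) and 33 before CIT2 (adjusted p = 0.0601), and Phd1 had 8 before RTG2 (adjusted p = 0.0524), all by Fisher's exact test. Their deposited p-values were 0.068, 0.91 and 0.91, in the same order, in the authors' deposited table.

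Of 44 other genes of the pathway and its metabolic surroundings, none was called by Rtg1, beside 0.5% of the 6402 genes tested. The deposited p-values likewise called none, beside 0.388% of 6444 genes. With shares this low, the lack of a call among 44 genes is not read as a lack of Rtg1 there. By Fisher's exact test 4 had an unadjusted p under 0.05, for which no share over all genes was taken. GLN1, the glutamine synthetase gene, had the most Rtg1 insertions, 6, with an adjusted p of 0.666 by Fisher's exact test. ATO3, an ammonium exporter gene regulated by the retrograde pathway, had 5. PDH1, a gene of propionate metabolism, had 4, a ratio of 8.64-fold with an adjusted p of 0.106. No Rtg1 insertion was found at 22 of the 44, beside 72.5% of all genes.

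Other factors were called at 5 of these genes by the deposited p-values, in 14 of 1232 pairs (1.14%). That share is near the 0.879% of all pairs, so the calls are listed as values only. HAP4, which encodes the activating subunit of the Hap complex that drives respiratory genes, accounted for 8 of the 14. The factors there were Flo8, Mss11, Mfg1, Sok2, Ste12, Tec1, Mit1 and Nrg1. GDH2, the catabolic glutamate dehydrogenase gene, was called for Fkh1 and Gcn4, GLN1 for Fkh1 and Msn1, HAP3 for Hms2, and BMH1, which encodes a 14-3-3 protein that binds Mks1, for Msn2.

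The genes whose rates over the 28 libraries were most like a member's were found by Pearson correlation of the square root of insertions per 10000. These values describe libraries of very unequal depth and carry no test. For CIT2 the closest was DLD3 (r = 0.91 over 28 libraries), followed by IRC16 and YPR039W, which share 1 upstream region. Without Rtg1 the correlation of CIT2 with DLD3 was 0.23 over 27 libraries, so it rested largely on that library. For DLD3 the closest were IRC16, YPR039W and TIP41 of that same region (r = 0.95, and 0.66 without Rtg1). All 3 had the same counts, 77 Rtg1 insertions and 199 in the other libraries, so they are not separate matches. The authors' deposited p-values called Rtg1 at IRC16 (1.11e-16) but not at YPR039W or TIP41, so the windows of those genes are uncertain. For CIT1 the closest were YBR284W (0.77), SSH1 and RML2, and for ACO1 RAD54 (0.68), SUT1 and GNP1. For IDH1 they were AVT2 (0.61), YJL133C-A and MRS3, and for IDH2 IZH3 (0.71), TMA17 and RRP42. For RTG2 they were CDC42 (0.56), MLS1 and YLR232W, and for MKS1 YGL102C (0.77), YDR034W-B and TRP1.

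In the RNA libraries the members split into 3 groups. CIT2 and DLD3 were lower in nitrogen-starved than in rich medium, CIT1, ACO1, IDH1 and IDH2 were higher, and RTG2 and MKS1 were close to equal. With 1 library per medium these are differences between libraries with no replicate check and no test. At least 2-fold higher were 4 of 8 members, beside 10.8% of the 6122 features with 5 RPKM or more in either medium. At least 2-fold lower were 2 of 8, beside 4.05%. In bulk RNA, fewer cells expressing a gene and less RNA per cell cannot be told apart.

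CIT2 had 14.2 RPKM in nitrogen-starved medium, against 91.2 RPKM in rich medium. DLD3 had 24.8 RPKM in nitrogen-starved medium, against 314 RPKM in rich medium. As log2 of the ratio of RPKM with 1 added, starved over rich, the differences were -2.60 for CIT2 and -3.61 for DLD3. The median over the 6122 features that passed the filter was 0.01. Of those features, 34 were lower than CIT2 by this difference and 16 lower than DLD3.

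CIT1 had 363 RPKM in nitrogen-starved medium, against 62.9 RPKM in rich medium, a 5.77-fold difference. ACO1 had 813 RPKM in nitrogen-starved medium, against 234 RPKM in rich medium, a 3.47-fold difference. IDH1 had 550 RPKM in nitrogen-starved medium, against 129 RPKM in rich medium. All 3 genes were thus more than 3 times higher in the starved library. IDH2 had 489 RPKM in nitrogen-starved medium, against 123 RPKM in rich medium. Its overlap with IRC14 (341 RPKM starved, 88.1 RPKM rich) leaves the split of reads between these genes uncertain. The IDH1 and IDH2 subunits stayed close in level, with an IDH1 to IDH2 ratio in RPKM of 1.12 in nitrogen-starved and 1.05 in rich medium.

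The citrate synthase genes CIT1 and CIT2 stood in opposite order in the 2 media. CIT2 made up 3.77% of the summed RPKM of CIT1 and CIT2 in nitrogen-starved medium, against 59.2% in rich medium. CIT1 was 25.6 times the level of CIT2 in starved cells, while CIT2 was 1.45 times the level of CIT1 in rich medium. DLD3 likewise made up 7.97% of the summed RPKM of DLD1, DLD2 and DLD3 in nitrogen-starved medium, against 66.2% in rich medium.

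RTG2 had 90.7 RPKM in nitrogen-starved medium, against 82.5 RPKM in rich medium. MKS1 had 48.2 RPKM in nitrogen-starved medium, against 47.2 RPKM in rich medium. The regulators of the pathway were thus at similar levels in both libraries. The 6 further regulators on the list, RTG1, RTG3, LST8, BMH1, BMH2 and GRR1, differed by -0.16 to 0.20 (log2), and none reached 2-fold.

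**Figure D3:**
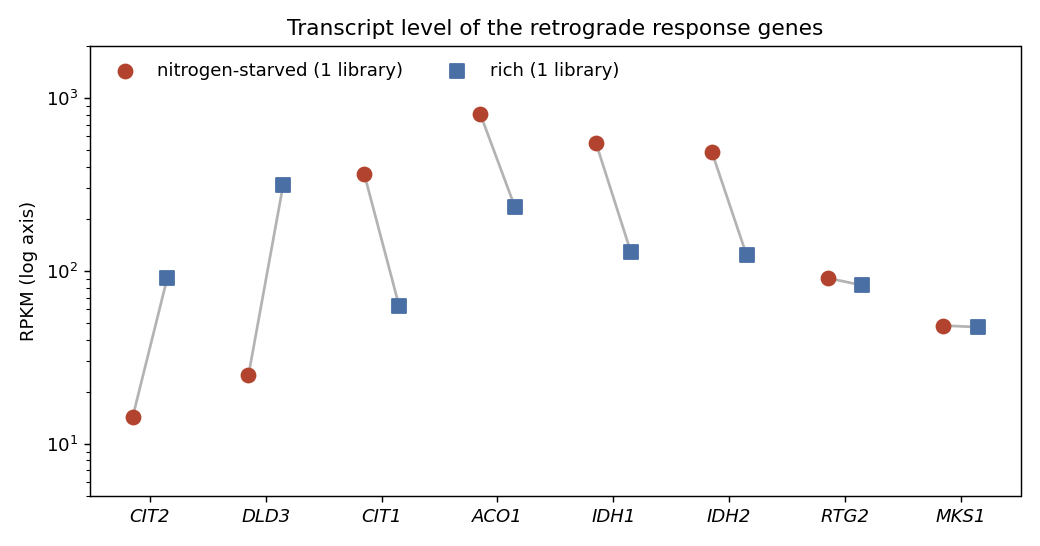
RPKM of the 8 genes in the nitrogen-starved library and the rich library, on a log axis, 1 point per gene and library. CIT2 and DLD3 are lower in the nitrogen-starved library, CIT1, ACO1, IDH1 and IDH2 are higher, and RTG2 and MKS1 nearly coincide.

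The wider metabolic genes resembled CIT1, ACO1, IDH1 and IDH2 and not CIT2 and DLD3. Of the 44 other genes, 23 were at least 2-fold higher in nitrogen-starved medium and 0 at least 2-fold lower, with 43 of them above the filter, beside 10.8% and 4.05% of all features that passed it. Of the 14 other tricarboxylic acid cycle genes, 11 were higher, with a median log2 difference of 2.10. These 11 were KGD1, KGD2, LPD1, LSC1, LSC2, SDH1, SDH2, SDH3, SDH4, FUM1 and MDH1. SDH4, a membrane subunit of succinate dehydrogenase, had 1189 RPKM in nitrogen-starved medium, against 116 RPKM in rich medium. LSC2, a subunit of succinyl-CoA ligase, had 855 RPKM in nitrogen-starved medium, against 130 RPKM in rich medium.

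Of the 10 glyoxylate cycle and anaplerotic genes, to which CIT2 is closest in function, 4 were higher. They were SFC1, a mitochondrial succinate and fumarate carrier gene, IDP2 and IDP3, NADP-dependent isocitrate dehydrogenase genes, and ICL1, the isocitrate lyase gene. ICL1 had 37.8 RPKM in nitrogen-starved medium, against 11.0 RPKM in rich medium. Among the other lactate dehydrogenase genes CYB2 had 94.3 RPKM in nitrogen-starved medium, against 8.69 RPKM in rich medium, while DLD1 and DLD2 were within 2-fold.

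Of the 5 genes of glutamate and glutamine metabolism, GDH1, GDH2, GDH3 and GLN1 were higher. GDH2 had 189 RPKM in nitrogen-starved medium, against 13.8 RPKM in rich medium. GLT1, the glutamate synthase gene that uses alpha-ketoglutarate, had 70.4 RPKM in nitrogen-starved medium, against 122 RPKM in rich medium, within 2-fold. Of the 4 Hap complex genes, HAP4 and HAP5 were higher. HAP4 had 215 RPKM in nitrogen-starved medium, against 56.6 RPKM in rich medium. Of the further retrograde targets, PDH1 had 49.0 RPKM in nitrogen-starved medium, against 5.34 RPKM in rich medium, and ATO3 had 140 RPKM in nitrogen-starved medium, against 192 RPKM in rich medium. Of 6 nitrogen-regulated genes used to check the labels, all 6 were higher, among them GAP1, the general amino acid permease gene, with 860 RPKM in nitrogen-starved medium and 11.3 RPKM in rich medium.

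**Figure D4:**
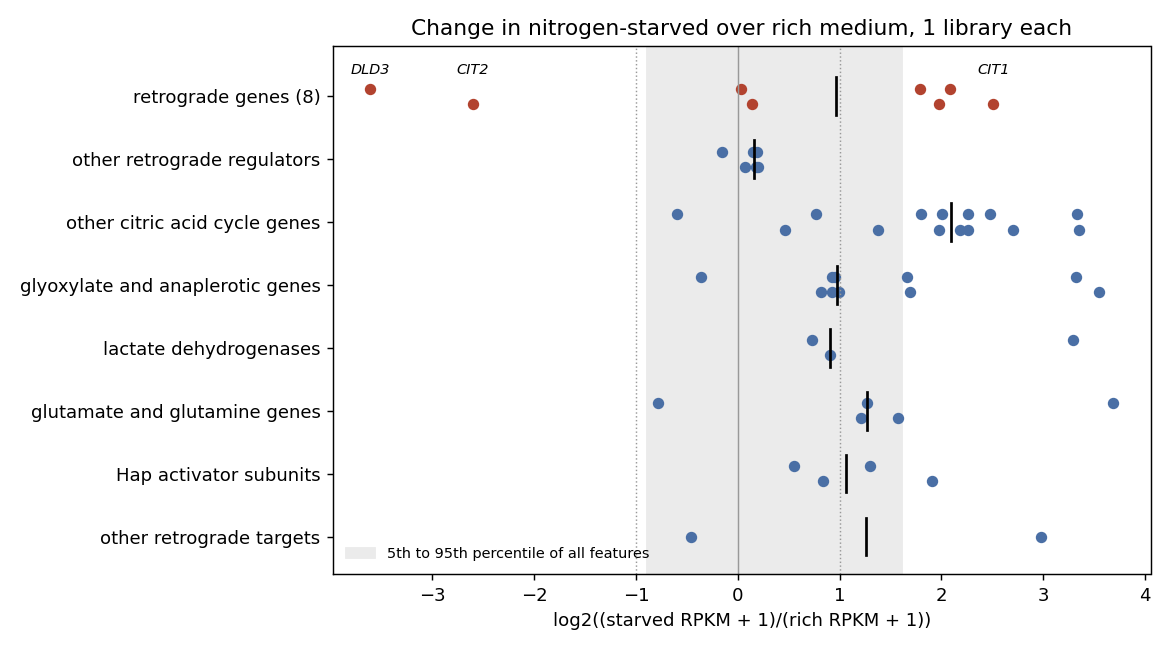
Log2 of the RPKM ratio, nitrogen-starved over rich with 1 added to each, for the 8 genes and the other lists of the pathway, 1 point per gene. Black bars are list medians, dotted lines mark 2-fold, and the grey band runs from the 5th to the 95th percentile of all features that passed the filter. CIT2 at -2.60 and DLD3 at -3.61 lie below 0, and 11 of the 14 other tricarboxylic acid cycle genes lie at least 2-fold above it.

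Set side by side, the members called in the Rtg1 library were also those lower in the nitrogen-starved library. CIT2 and DLD3 had 82 and 44 Rtg1 insertions and were the members lower in nitrogen-starved medium. The members that were higher there had 1 to 3 Rtg1 insertions each, and RTG2 and MKS1, which were near equal, had 0. At the depth of the Rtg1 library, counts this low leave any difference at those genes unresolved. Among all 32 genes called in the Rtg1 library, 7 were at least 2-fold higher in nitrogen-starved medium and 7 at least 2-fold lower. The insertions were collected in low ammonium medium with galactose and the RNA libraries in media of unstated recipe, so the readouts are not of one matched condition. The relation between them was not tested.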

How the data were processed

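Each deposited insertion list gave, per insertion, its chromosome, its position and a whole number with no header, taken here as the authors' read count. The aligner, filters and genome build are not given in the sources used here. Listed lines were counted as insertions. The authors' deposited table held 1 p-value per gene and factor, and the authors' expression table held RPKM in each medium, per the file headers. All value columns were assigned to a library (0 left out). A search for the RPKM worth of 1 read found no step that made low values whole (15.7% and 17.7% of the lowest 300 features within 0.05 reads, nitrogen-starved and rich), so reads were not recovered and RNA depth is unknown.

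Windows of 1200 bp were taken upstream of start codons in the deposited coordinates, printed counting from 1. Fisher's exact test was one-sided, with Benjamini-Hochberg adjustment over 179256 pairs, in scipy 1.17.1 and pandas 2.3.3 under Python 3.11.15. The code was tried on simulated data with independent counts. That trial does not cover insertions that are not independent, such as PCR copies, and lends no weight to the calls. RPKM was compared as log2(value + 1) for features with at least 5 RPKM in 1 medium. Genes named were all members, genes of the listed pathway groups called by Rtg1 or past 2-fold, libraries called at a member, and the 3 genes most like each member among those with at least 50 insertions. GLT1, ATO3, DLD1, DLD2, HAP3, the further regulators and the near-threshold pairs were added after their values were seen. A motif search was planned and was not run. The members and lists were chosen with earlier results of these data known. Alternatives were another window, read minimum, repeated positions, adjustment, threshold, pseudocount and filter.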

Additional observations from a re-analysis of the deposited data

How the results depend on the processing

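Rtg1 remained called at CIT2, with an insertion odds ratio of 52.8 to 187 (the highest from 4 insertions), and at DLD3, with 46.6 to 62.1, under each alternative run. The pairs of member and library called numbered 6, against 3, when p-values were adjusted within each library, the additions being Mga1 at CIT1 and CIT2 and Phd1 at RTG2. They numbered 2 with at least 2 reads, and 2 at a deposited p of 0.0001. In the 600 bp window they numbered 3, with Sfl1 at IDH2 gained and Hms2 at IDH1 lost. At CIT1, with 1 Rtg1 insertion, the odds ratio of 1.09 became 0 in a 600 bp window, 0 in a window ended at the nearest upstream gene, and 0.994 with each position counted once. Rtg1 ranked 1 at IDH2, not 2, in the 600 bp window, in the window ended at the nearest gene, and in the window moved downstream, which was chosen after seeing the data, and 3 with each position counted once. Its rank at CIT1 ran from 7 to 24, against 10. The odds ratio of Hms2 at IDH1, 6.72, was 3.67 at 600 bp and 5.10 with at least 2 reads. With at least 2 reads, 19 genes were called in the Rtg1 library, against 32. The members past 2-fold in RPKM numbered the same under each pseudocount and filter tried. No paired analysis was possible because each group has 1 library. The small size of the Rtg1 library limits what can be seen at genes with few insertions, and with 1 library per factor neither growth nor library preparation can be told apart from the factor.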

Other observations

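Some of the 32 genes called in the Rtg1 library by Fisher's exact test are given here as values, chosen after they were seen and with no test of a shared theme. Most Rtg1 insertions after those at CIT2 lay before YPR036W-A and its neighbours (77, against 177 in the other 27 libraries at YPR036W-A), the cell wall gene CWP2 (52 against 3207, 2.28-fold) and DSE1 (48 against 1628, 4.14-fold). Among amino acid permease genes, GNP1 had 17 Rtg1 insertions against 134 in the other libraries (17.8-fold), DIP5 had 11 against 151 (10.2-fold), and BAP3 had 9 against 213 (5.93-fold). The p-value of BAP3 in the authors' deposited table, 0.0572, did not reach 0.001. Nor did those of others among the 32, such as LYS20 (0.0572), YJL133C-A (0.00559) and FMP43 (0.0365). The RNA counts below include these genes. In RNA, DIP5 had 404 RPKM in nitrogen-starved medium, against 65.7 RPKM in rich medium, and GNP1 had 232 RPKM in nitrogen-starved medium, against 292 RPKM in rich medium. YPR036W-A had 678 RPKM in nitrogen-starved medium, against 3053 RPKM in rich medium. Of the 32, several of which share an upstream region, 7 were at least 2-fold higher in nitrogen-starved medium, beside 10.8% of all features that passed the filter, and 7 at least 2-fold lower, beside 4.05%. CIT2 and DLD3 are among those 7 lower genes.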
